A study of Mus musculus with 12 samples.

Results

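CDDO-Im was set against dimethyl fumarate (DMF) on 6 of the 12 Illumina mouse expression arrays of a study of NRF2 activators, over 13280 genes. The arrays were chosen by their sample titles. VC1 cells, a lung adenocarcinoma line of female A/J origin, received 0.05 µM CDDO-Im for 6 h (3 arrays) or 15 µM DMF for 6 h (3 arrays). The other 6 arrays came from VC1 cells given 0.1 µM CDDO-Me or DMSO for 6 h (3 each), and they entered the fits only to estimate the spread and to give each compound's difference from DMSO. The labels name no genetic change in any group. CDDO-Im is the imidazolide of CDDO, a synthetic oleanane triterpenoid, and DMF is a small diester of fumaric acid. Their doses differed, so each difference below is between these treatments as given and not between the compounds at one dose. This was 1 pair of treatments in 1 cell line. Whether the replicates came from separate cultures is not in the labels. The p-values measure only the spread between these samples, which may be technical.

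NRF2 is a transcription factor that KEAP1 marks for degradation in unstressed cells. Electrophiles, both compounds among them, modify cysteines of KEAP1, after which NRF2 accumulates and binds antioxidant response elements (AREs) beside genes for glutathione synthesis, heme breakdown, quinone reduction and NADPH supply. BACH1 occupies many of the same elements as a repressor, and heme and some electrophiles remove it.

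The epithelial label held for 5 of 7 epithelial markers, but only 1 of 5 lung epithelium markers was detected on all 12 arrays. Krt8, Krt18, Krt7, Krt19 and Cdh1 were detected on all 12 arrays, as was the lung transcription factor gene Nkx2-1. The probes for Epcam, Cldn4 and the surfactant gene Sftpc were detected on none. The lung markers Napsa and Scgb1a1 were detected on 1 array each, and Sftpb on 11. Of the markers of other cell types, 5 of 8 leukocyte genes (Ptprc among them), 3 of 6 endothelial genes (Pecam1 among them) and 4 of 8 fibroblast genes (Col3a1 among them) were detected on no array. The others were detected on some, Cd68 and Kdr on 11 arrays each, Pdgfra on 7, Csf1r on 5 and Col1a2 on 4. The arrays measured whole cultures, so fewer expressing cells and less RNA per cell cannot be told apart.

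CDDO-Im replicate 2 and DMSO replicate 1 stood apart. The 10 other arrays correlated with each other at 0.988 or more across the genes tested, CDDO-Im replicate 2 correlated with those 10 at 0.931 to 0.942, and DMSO replicate 1 at a median of 0.916. Mean raw intensity was 457 on CDDO-Im replicate 2 and 440 on DMSO replicate 1, against 552 to 684 on the others, and the share of probes detected was 32.7% on the first and 38.1% on the second, against 38.3% to 41.3%. Both lay on the first of 2 BeadChips, and each BeadChip held all 4 groups. Results are therefore given with and without CDDO-Im replicate 2. They are also given with DMSO replicate 1 left out, which is outside the comparison but enters the spread that all groups share.

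The number of genes that differed past the test between CDDO-Im and DMF depended on those 2 arrays. A gene was called when limma's p, after Benjamini-Hochberg adjustment across all 13280 genes, was under 0.05, with group and BeadChip as terms. With all 12 arrays limma called 0 genes (0%), with 443 genes at an unadjusted p under 0.05 and a smallest adjusted p of 0.0589. Without CDDO-Im replicate 2, 2 genes were called (0.0151%), Edn2 and Dppa5a, both higher with CDDO-Im. With all 3 CDDO-Im and all 3 DMF arrays kept and DMSO replicate 1 left out, 36 genes were called (0.271%), 22 higher (0.166%) and 14 lower (0.105%) with CDDO-Im. This fit of 11 arrays, whose spread also draws on CDDO-Me and DMSO arrays, is meant below by "all 6 arrays". The 6 CDDO-Im and DMF arrays fitted alone called 0 genes. Without both arrays, 240 genes were called (1.81%), 153 higher (1.15%) and 87 lower (0.655%).

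The median standard error of a gene's log2 difference was 0.251 with 12 arrays and 0.0962 with 10. All 36 genes called with DMSO replicate 1 alone left out were among the 240, and 239 of the 240 had the same sign with 12 arrays. CDDO-Im signals lay entirely above the DMF signals for 1469 genes (11.1%) and entirely below for 808 (6.08%), replicate 2 included. Of the 240 called genes, 126 of the 153 higher ones and 63 of the 87 lower ones were separated in this way, and so were all 36. Within each BeadChip, 227 of the 240 kept 1 direction. These counts reuse arrays that made the calls, so they are not a separate check. CDDO-Im replicate 2 was left out of the fit with 10 arrays. It lay on the same side of the DMF mean as the called difference for 201 of the 240.

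The called differences had a median size of 0.59 on the log2 scale, and 18 were over 1, 13 of them higher and 5 lower with CDDO-Im. For 13108 of the 13280 genes (98.7%) the 95% interval of the difference with 10 arrays lay between -1 and 1. With 12 arrays this held for 9515 genes (71.6%). It held for 11224 (84.5%) with only CDDO-Im replicate 2 left out and for 10802 (81.3%) with only DMSO replicate 1 left out. Unless another fit is named, differences below are CDDO-Im minus DMF on the log2 scale with 10 arrays, ± SE. Signals are normalized log2 signals, and adjusted p-values are limma's. Higher and lower are meant relative to DMF unless DMSO is named. Counts called in a list stand beside 1.15% of all genes called higher and 0.655% called lower.

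**Figure D1:**
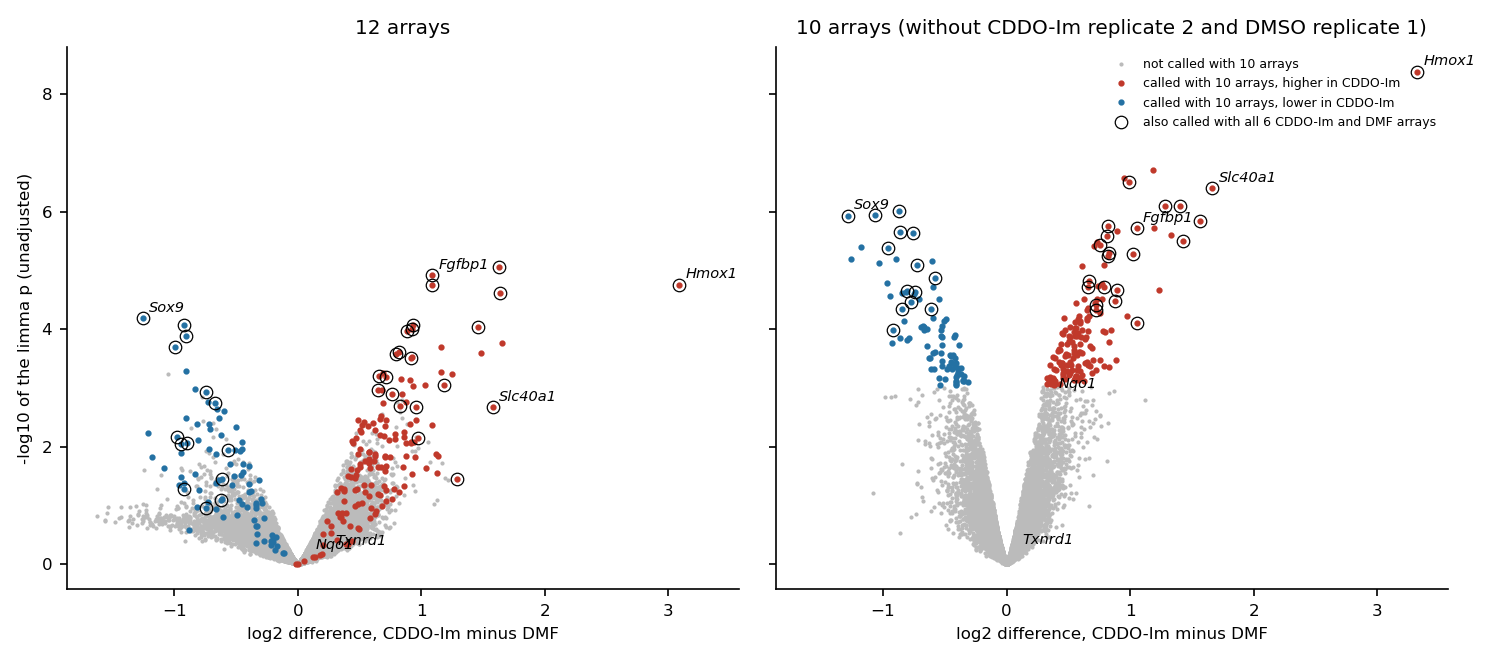
Each point is a gene, with its log2 difference (CDDO-Im minus DMF) across and -log10 of its unadjusted limma p upward, for 12 arrays on the left and 10 on the right. Red (higher with CDDO-Im) and blue (lower) mark the 240 genes called with 10 arrays in both panels. Rings mark the 36 called with all 6 CDDO-Im and DMF arrays kept and DMSO replicate 1 left out. Hmox1 stands furthest to the right in both panels.

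Hmox1, of heme breakdown, and Slc40a1, of iron export, had the 2 largest differences of all called genes. Hmox1, whose enzyme splits heme into biliverdin, iron and carbon monoxide, had signals of 11.01, 10.45 and 11.13 on the CDDO-Im arrays, against 7.81, 7.70 and 7.77 on the DMF arrays. The groups lay far apart, and CDDO-Im replicate 2 was the lowest of its group. Hmox1 was 10.0-fold higher with CDDO-Im, a difference of 3.32 ± 0.13 (adjusted p = 5.51e-05), and 8.50-fold higher with 12 arrays (adjusted p = 0.0589). With the 6 CDDO-Im and DMF arrays and without DMSO replicate 1 its adjusted p was 0.00138. In raw signal, before any normalization, Hmox1 read 2192, 1033 and 2224 with CDDO-Im and 304, 290 and 289 with DMF.

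Slc40a1, which encodes the iron exporter ferroportin, had signals of 9.17, 8.68 and 9.13 with CDDO-Im, against 7.64, 7.21 and 7.54 with DMF. Every CDDO-Im array exceeded every DMF array, and the difference was 1.67 ± 0.11, or 3.17-fold (adjusted p = 0.00105; 0.0242 with all 6 arrays). Hfe, an iron-sensing partner of the transferrin receptor that was in no list, was also called with all 6 arrays, with a difference of 0.82 ± 0.07. Blvrb, a biliverdin reductase, differed by 0.32 ± 0.06 (adjusted p = 0.0415). In the list of heme breakdown and iron handling genes, these 3 (Hmox1, Slc40a1 and Blvrb) of 16 tested were called higher and 0 lower. The list's median difference was 0.08, against 0.01 over all genes, and 0.19 with 12 arrays, against 0.05 over all genes. The remaining 13 ran from -0.14 to 0.40, among them the ferritin genes Fth1 (0.05) and Ftl1 (0.01) and the transferrin receptor gene Tfrc (-0.09).

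The KEAP1 and NRF2 regulators were not called in either direction (0 of 13 with limma). Bach1 had signals of 9.71, 9.58 and 9.26 with CDDO-Im, against 8.45, 8.31 and 8.17 with DMF, without overlap. Its difference of 1.12 ± 0.24 had an adjusted p of 0.0688. Nfe2l2, the gene of NRF2 itself, read 9.67, 5.79 and 9.25 with CDDO-Im and 9.77, 9.64 and 9.92 with DMF. CDDO-Im replicate 2 was far below the rest for Nfe2l2, and the difference was -0.34 ± 0.11 without it and -1.43 with all 12 arrays. Mafg, a small MAF partner of NRF2, differed by 0.41 ± 0.09 (adjusted p = 0.0733) and Keap1 by 0.17 ± 0.07. Bach1, Nfe2l2 and Keap1 were picked for their roles after their values were seen, and Mafg had the smallest p of the list without CDDO-Im replicate 2.

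Of 10 cystine import and glutathione synthesis genes tested, 5 were called higher with CDDO-Im and 1 lower, against 1.15% and 0.655% of all genes. The list's median difference was 0.22, against 0.01 over all genes, and 0.32 with 12 arrays. Gclc, the catalytic subunit of the rate-limiting enzyme of glutathione synthesis, had signals of 9.74, 9.60 and 10.16 with CDDO-Im, against 8.73, 9.52 and 9.23 with DMF. The lowest CDDO-Im array was just above the highest DMF array, and the difference was 0.88 ± 0.11 (adjusted p = 0.00771; 0.0386 with all 6 arrays). Gclm, its modifier subunit, read 13.87, 13.27 and 13.90 with CDDO-Im and 13.37, 13.51 and 13.54 with DMF. Here CDDO-Im replicate 2 fell below all DMF arrays, and the difference of 0.42 ± 0.07 was called with 10 arrays but had an adjusted p of 0.641 with all 6.

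Gss, which completes glutathione, differed by 0.60 ± 0.10, and Slc1a4, a neutral amino acid carrier, by 0.73 ± 0.09. Slc7a11, the cystine importer, had signals of 13.43, 13.15 and 13.54 with CDDO-Im, against 12.96, 13.03 and 12.94 with DMF. All 3 CDDO-Im arrays were higher, by 0.51 ± 0.07 (adjusted p = 0.0141). The gene's 4 kept probes had differences of 0.51, 0.64, 0.72 and 1.94, and the value used is that of the brightest probe. Chac1, which degrades glutathione and is a target of ATF4, was the member called lower than with DMF, by 0.53 on the log2 scale. From DMSO, Chac1 differed by 0.99 with CDDO-Im and 1.53 with DMF, both called.

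Some called genes, Gclm among them, carry the core of the ARE just upstream of their start sites. The core was searched as TGACNNNGC on both strands in RefSeq windows of 300 bases, from 250 before to 50 after each annotated start (build GRCm38.p6), and windows were matched to 8481 of the 13280 genes tested. It was found for 26 of the 99 genes called higher that had a window (26.3%), for 9 of the 63 called lower (14.3%) and for 1419 of the 8481 (16.7%). Of all 32851 windows, 12.4% held it. The core can overlap the AP-1 motif TGANTCA. That motif was found for 13.1% of the genes called higher, 15.9% of those called lower and 6.46% of the genes tested, each counted over genes with a window, and in 7.81% of all windows. These counts describe letters in a window and were not tested. Of the called glutathione and iron genes named above, Gclm and Hfe held the core. Slc7a11, Gss, Slc1a4, Chac1 and Blvrb had a window without it, and Gclc, Hmox1 and Slc40a1 had no window.

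The stretches below come from 4 genes called higher and 1 called lower, to show the core in glutathione, iron, signalling and protein disposal genes. Capitals mark the core, and each stretch reads 5′ to 3′ on the strand of its gene. Gsta3 (chr1:21240439-21240497, plus strand), Gclm (chr3:122245398-122245456, plus), Hfe (chr13:23710888-23710946, minus), Edn1 (chr13:42301257-42301315, plus) and Herpud1 (chr8:94386225-94386283, plus) hold it at 121, 134, 67, 194 and 179 bases before the start site. In Hfe the core overlaps an AP-1 motif, and in Gclm it is read on the opposite strand.
Gsta3: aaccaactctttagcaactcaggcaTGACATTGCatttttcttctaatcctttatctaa
Gclm: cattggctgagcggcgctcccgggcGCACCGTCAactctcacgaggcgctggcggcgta
Hfe: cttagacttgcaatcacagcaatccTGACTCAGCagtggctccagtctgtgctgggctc
Edn1: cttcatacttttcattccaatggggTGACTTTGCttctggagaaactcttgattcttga
Herpud1: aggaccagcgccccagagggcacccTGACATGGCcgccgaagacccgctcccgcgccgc

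Gsta3, a glutathione transferase with the core shown above, had signals of 8.58, 8.67 and 8.46 with CDDO-Im, against 7.76, 7.69 and 7.45 with DMF. The groups did not overlap, and the difference was 0.88 ± 0.15 (adjusted p = 0.0281), the only call among 20 glutathione transferases, whose median was 0.10. Srxn1, which repairs oxidized peroxiredoxins, was higher by 0.59 ± 0.08 and Txnip, an inhibitor of thioredoxin, was lower by 0.69. These were the 2 calls among 15 thioredoxin, sulfiredoxin and peroxiredoxin genes (median 0.04 with 10 arrays and 0.11 with 12). On CDDO-Im replicate 2, Txnip read 10.28, within the DMF range of 10.21 to 10.31. Aldh1a1, a retinaldehyde dehydrogenase, was higher by 0.58 ± 0.08, alone among 15 aldehyde dehydrogenases. Abcb4, a phospholipid flippase of the ABC family, was higher by 1.19 ± 0.10, alone among 7 efflux transporters, and Osgin1, an oxidative stress-induced growth inhibitor, by 0.51 ± 0.09.

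Of 16 quinone reductases, carbonyl reductases and other phase II enzymes limma called 0, and of 14 NADPH supply genes 0. The medians of these 2 lists were 0.03 and 0.06 with 10 arrays, and 0.13 and 0.07 with 12. Nqo1, the quinone reductase most used as an NRF2 readout, had signals of 7.39, 6.50 and 7.40 with CDDO-Im, against 7.02, 6.96 and 7.10 with DMF. CDDO-Im replicate 2 was the lowest of the 6, and without it the difference was 0.37 ± 0.08, with a 95% interval of 0.19 to 0.54 and an adjusted p of 0.0617. Txnrd1, thioredoxin reductase, read 9.03, 9.43 and 9.62 with CDDO-Im and 8.95, 9.42 and 9.63 with DMF, a difference of 0.07 ± 0.13 with an interval of -0.22 to 0.37. The Txnrd1 arrays of the groups interleaved. G6pdx, which starts the pentose phosphate pathway, differed by 0.29 ± 0.09 (adjusted p = 0.192).

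Over 8 NRF2 lists joined, the regulators included and the efflux transporters and Osgin1's list left out, 119 genes were tested, of which 11 were called higher and 2 lower, against 1.15% and 0.655% of all genes. Their median difference was 0.07, against 0.01 over all genes (0.14 and 0.05 with 12 arrays), and 78 of the 119 differences were positive, against 6961 of 13280. CDDO-Im lay above DMF without overlap for 36 of the 119 and below for 6, against 11.1% and 6.08% of all genes. The interval lay between -1 and 1 for 114 of the 119. With all 6 arrays the calls were Hmox1, Slc40a1 and Gclc.

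Set against DMSO, 6 NRF2 targets given here as examples were higher with both compounds, as were others, Gclm among them. These differences share DMSO replicates 2 and 3. Hmox1 differed from DMSO by 5.14 with CDDO-Im and 1.81 with DMF, Slc7a11 by 3.77 and 3.26, Gsta3 by 3.55 and 2.67, Gclc by 3.01 and 2.13, Nqo1 by 2.01 and 1.64, and Txnrd1 by 1.75 and 1.67, in the same order of compounds. Each of those 12 differences was called by limma. Over the 119 genes the median difference from DMSO was 0.22 for CDDO-Im and 0.23 for DMF with 10 arrays, and 0.45 for CDDO-Im and 0.41 for DMF with 12.

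**Figure D2:**
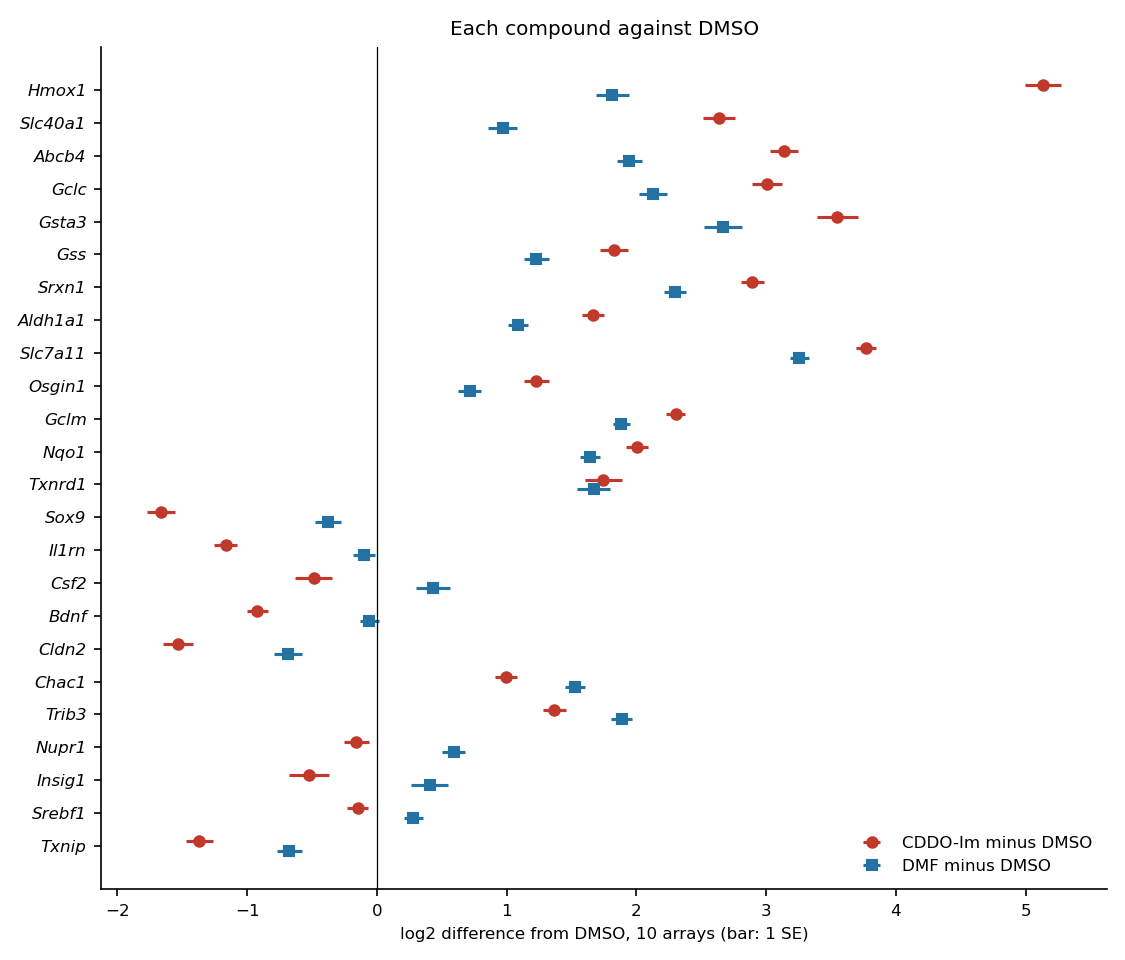
Log2 difference of CDDO-Im (red circles) and DMF (blue squares) from DMSO with 10 arrays, with bars of 1 SE, for 24 genes. Hmox1 shows the widest gap (5.14 and 1.81) and Txnrd1 almost none (1.75 and 1.67), while Sox9, Il1rn and Bdnf lie further below DMSO with CDDO-Im (-1.66, -1.16 and -0.92) than with DMF (-0.38, -0.10 and -0.06).

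Bdnf, a neurotrophin, had signals of 9.06, 8.60 and 8.96 with CDDO-Im, against 9.88, 9.85 and 9.83 with DMF. No arrays overlapped, and Bdnf was lower by 0.86 on the log2 scale (adjusted p = 0.00181, and 0.0402 with all 6 arrays).

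The vasoconstrictor peptide gene Edn2 had signals of 7.64, 8.54 and 7.68 with CDDO-Im, against 6.27, 6.32 and 6.10 with DMF. CDDO-Im replicate 2 was the highest, and the difference was 1.40 ± 0.10 without it and 1.64 with 12 arrays. Its adjusted p was 0.0015 with 10 arrays and 0.038 with all 6. Edn1, its paralog and the carrier of one of the cores shown above, was higher by 0.79 ± 0.14 (adjusted p = 0.0316) and was detected on 3 CDDO-Im arrays and 1 DMF array. Against DMSO, Edn2 differed by 1.25 with CDDO-Im and -0.16 with DMF, the first of which was called.

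Fgfbp1, which releases fibroblast growth factors from the matrix, had signals of 6.99, 7.18 and 7.31 with CDDO-Im, against 6.14, 6.07 and 6.17 with DMF. The groups did not overlap. Fgfbp1 was higher by 1.05 ± 0.09, and Mst1r, a receptor tyrosine kinase of epithelial cells, by 0.82 ± 0.08. Both were called with all 6 arrays. Pdgfra, a growth factor receptor on the fibroblast marker list, was higher by 0.98 ± 0.13. It was detected on 3 CDDO-Im arrays and 1 DMF array, and Col3a1, Dcn, Lum and Thy1 of the same list of 8 on none of the 12. The mean signal of the 8 genes ran from 4.95 to 5.29 on the CDDO-Im arrays and from 4.71 to 4.93 on the DMF arrays, and its part in the result was not tested.

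Among 14 cytokine and chemokine genes tested, 1 was called higher and 2 lower, against 1.15% and 0.655% of all genes. The list's median was 0.02 with 10 arrays and 0.22 with 12. Il1rn, the secreted antagonist of the interleukin-1 receptor, had signals of 11.17, 11.35 and 11.22 with CDDO-Im, against 12.25, 12.32 and 12.20 with DMF. All CDDO-Im arrays were lower, and the difference was -1.06 ± 0.08 (adjusted p = 0.00155; 0.0118 with all 6 arrays). Csf2, which encodes GM-CSF, read 5.56, 5.49 and 5.82 with CDDO-Im and 6.57, 6.57 and 6.66 with DMF. Csf2 was lower by 0.92 on the log2 scale and was detected on 2 CDDO-Im and 3 DMF arrays. The neutrophil chemokine gene Cxcl1 was higher, by 0.83 ± 0.15 (adjusted p = 0.0319).

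Sox9, a progenitor factor of the distal lung, had signals of 8.14, 8.04 and 7.41 with CDDO-Im, against 9.29, 8.83 and 8.82 with DMF. Sox9 was lowest on CDDO-Im replicate 3, did not overlap between groups, and had the largest negative difference of all called genes, -1.28 ± 0.10 (adjusted p = 0.00155; 0.0101 with all 6 arrays). Its second kept probe gave -0.78. Foxa2, a pioneer factor of endoderm and airway epithelium, went up, with 8.55, 8.56 and 8.49 for CDDO-Im and 7.94, 7.71 and 7.87 for DMF. The Foxa2 difference was 0.66 ± 0.07 (adjusted p = 0.00591; 0.0401 with all 6 arrays).

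Eomes, a T-box factor known from early embryos and lymphocytes, was higher by 1.42 ± 0.13 and was called with all 6 arrays. Snai2, a repressor of epithelial genes, was lower by 0.68, and Ets1, a factor of the ETS family, by 0.49. For Ets1 the CDDO-Im arrays read 11.70, 10.38 and 11.56 and the DMF arrays 12.14, 12.07 and 12.09, with replicate 2 lowest. Snai2 and Ets1 were chosen after their values were seen.

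**Figure D3:**
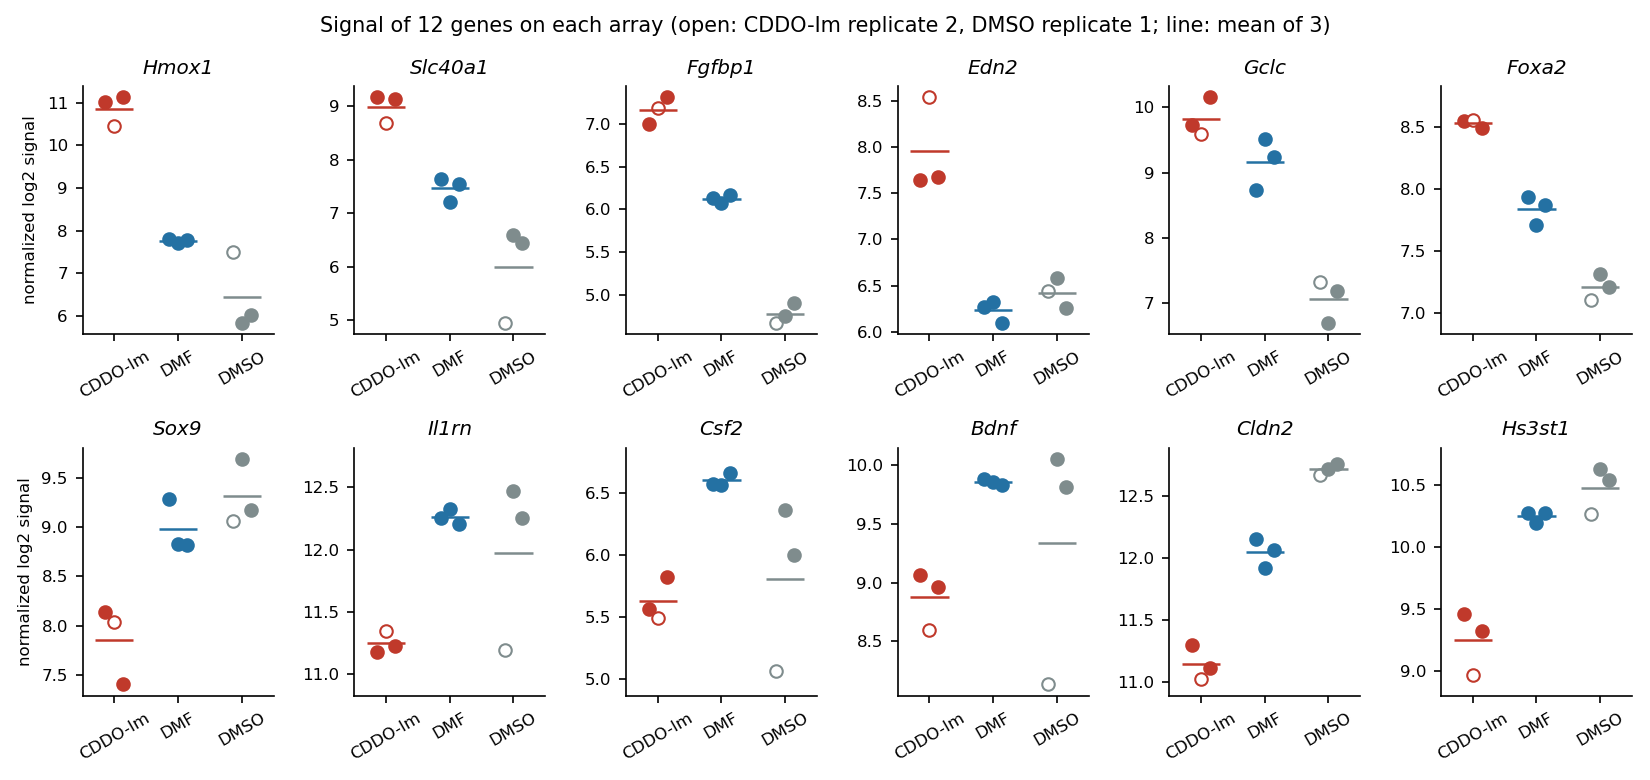
Normalized log2 signal of 12 genes on each CDDO-Im, DMF and DMSO array, with a line at the mean of 3 and open circles for CDDO-Im replicate 2 and DMSO replicate 1. In the upper row (Hmox1, Slc40a1, Fgfbp1, Edn2, Gclc, Foxa2) the CDDO-Im arrays lie above the DMF arrays, and in the lower row (Sox9, Il1rn, Csf2, Bdnf, Cldn2, Hs3st1) below them.

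Genes of lung epithelial identity, claudins and aquaporins were mostly lower with CDDO-Im among those called. Of 19 tested, 5 were called lower and 1 higher, against 0.655% and 1.15% of all genes, and 4 had a positive difference. Their median difference was -0.21, against 0.01 over all genes. Besides Sox9, the lower ones were Cldn2, a claudin that forms cation pores (-0.85 ± 0.11), the water channel genes Aqp8 (-0.63) and Aqp5 (-0.53), and the simple-epithelium keratin gene Krt7 (-0.36). Cldn2 was called with all 6 arrays, with signals of 11.30, 11.03 and 11.11 for CDDO-Im and 12.15, 11.92 and 12.07 for DMF. For Krt7, CDDO-Im replicate 2 (13.27) lay above all 3 DMF arrays (at most 13.15), opposite to the called difference, and for Aqp8 it lay within the DMF range. Foxa2 was the member called higher.

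Among the decreases outside the lists, Hs3st1, a heparan sulfate sulfotransferase, had signals of 9.47, 8.98 and 9.33 with CDDO-Im, against 10.28, 10.20 and 10.28 with DMF. The groups were apart, and the difference was -0.87 ± 0.07 (adjusted p = 0.00155; 0.0401 with all 6 arrays). Has2, a hyaluronan synthase, was lower by 1.03 and was detected on 1 CDDO-Im and 3 DMF arrays. Ivl, which encodes involucrin of the cornified envelope, was lower by 1.18, and Padi1, a peptidylarginine deiminase of the epidermis, by 1.26. On CDDO-Im replicate 2 Padi1 read 8.08, above all 3 DMF arrays (7.77, 7.76 and 8.02).

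All called genes of the ATF4 and lipid synthesis lists were lower with CDDO-Im. The ATF4 amino acid response acts when amino acids or protein folding fail. Of its 28 genes tested, 3 were called lower and 0 higher, against 0.655% and 1.15% of all genes. The 3 were Nupr1 (-0.75), Chac1 (-0.53) and Trib3 (-0.52). The list had 7 positive differences and a median of -0.10. Chac1 read 11.43, 11.66 and 11.44 with CDDO-Im and 12.04, 11.92 and 11.92 with DMF, without overlap. Trib3, a pseudokinase that feeds back on the pathway, did overlap, since CDDO-Im replicate 2 (10.45) lay between the DMF arrays (10.49, 10.33 and 10.21). Against DMSO, Trib3 differed by 1.37 with CDDO-Im and 1.89 with DMF, both called. The amino acid synthesis gene Asns differed by -0.07 ± 0.08 between the treatments.

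Cholesterol synthesis genes had a median of -0.21, with 2 of 20 positive. One was called, Insig1, whose product retains the sterol sensor in the endoplasmic reticulum. It had signals of 9.30, 8.13 and 9.29 with CDDO-Im, against 10.13, 10.25 and 10.40 with DMF, a difference of -0.93 ± 0.14 (adjusted p = 0.019). CDDO-Im replicate 2 was the lowest of the 6. Of 12 fatty acid synthesis genes, Acsl3, an acyl-CoA synthetase (-0.55 ± 0.07), and Srebf1, their master transcription factor gene (-0.43 ± 0.07), were called lower and 0 higher. The median of these 12 was -0.12 with 10 arrays and -0.24 with 12. On CDDO-Im replicate 2 they differed from the other CDDO-Im arrays by a median of -0.52. Outside these lists, Abcg1, a sterol efflux pump, was lower by 0.80 and Angptl4, an inhibitor of lipoprotein lipase, by 0.61. Angptl4 was also called with all 6 arrays.

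Of 19 endoplasmic reticulum chaperone and unfolded protein response genes, 2 had a positive difference and 1 was called, Herpud1, a component of protein disposal (-0.43 ± 0.07). Their median was -0.09 with 10 arrays and -0.37 with 12, and on CDDO-Im replicate 2 the list lay 0.57 below the other CDDO-Im arrays (a median difference of -0.57). Of 20 cytosolic heat shock genes, 19 had a positive difference, against 6961 of all 13280 genes, and the median was 0.12. With 12 arrays 16 were positive, against 7720 of all genes. With only DMSO replicate 1 left out 14 were positive, against 7505. In each of these fits limma called 0 of the 20. The constitutive chaperone gene Hspa8 differed by 0.15 ± 0.07, with an interval of -0.01 to 0.31.

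Several stress kinase and growth arrest genes were higher with CDDO-Im than with DMF. Of 22 p53 targets and apoptosis regulators, 4 were called higher and 0 lower, against 1.15% and 0.655% of all genes. The list median was 0.01. The called genes were the polo-like kinase genes Plk3 (0.79 ± 0.09) and Plk2 (0.57 ± 0.09) and the growth arrest genes Gadd45b (0.63 ± 0.11) and Gadd45g (0.51 ± 0.07). From DMSO, Gadd45b differed by 0.13 with CDDO-Im, not called, and by -0.51 with DMF, called. Gadd45g differed from DMSO by 0.67 with CDDO-Im, called, and by 0.16 with DMF, not called. Plk3 read 9.91, 9.90 and 9.99 with CDDO-Im, against 9.27, 9.05 and 9.16 with DMF, without overlap, and was called with all 6 arrays. Dusp1, a phosphatase that switches off MAP kinases, had signals of 11.19, 10.60 and 11.20 with CDDO-Im, against 10.41, 10.44 and 10.36 with DMF. Its difference of 0.79 ± 0.08 (adjusted p = 0.00321) was the only call among 13 MAP kinase feedback genes.

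The 18 immediate early transcription factor genes held 2 called higher and 1 lower (median -0.08), against 1.15% and 0.655% of all genes. Fosl2, a FOS family member, was higher by 0.67 ± 0.07 and was called with all 6 arrays, but 2 other kept probes of the gene differed by 0.02 and 0.09. Jun was higher by 0.55 ± 0.09. Fos was lower than with DMF by 0.54 (adjusted p = 0.0494) and was detected on 2 CDDO-Im arrays. From DMSO, Fos differed by 0.81 with CDDO-Im and 1.35 with DMF, both called. Egr1, an early growth response factor, differed by -0.47, with an interval of -0.89 to -0.06 and an adjusted p of 0.293. Against DMSO, Egr1 differed by 1.73 with CDDO-Im and 2.20 with DMF, both called.

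The remaining lists held few calls. Among 13 peroxide defence and ferroptosis genes, 2 were called, both named above (Slc7a11 and Osgin1). Of 5 metallothionein and metal response genes the zinc exporter gene Slc30a1 was called, higher by 0.64 ± 0.10. The matrix metalloproteinase list had Serpinb2, a plasminogen activator inhibitor that was lower by 0.64. The protease gene Mmp10 of that list differed by 0.50 ± 0.13 (adjusted p = 0.122). The TGF-beta, BMP and YAP list had Ankrd1, a YAP target that was higher by 0.45 ± 0.08. NF-kB, STAT3, interferon, EGF receptor, proteasome, hypoxia and cell cycle lists had 0 calls by limma with 10 arrays, and their medians ran from -0.08 to 0.08. With 12 arrays these medians ran from -0.13 to 0.10, and those of the interferon list (-0.13, against 0.08 with 10) and the EGF receptor list (-0.05, against 0.03 with 10) turned sign. The interval lay between -1 and 1 for all 29 proteasome genes and all 30 S phase and G2/M genes.

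**Figure D4:**
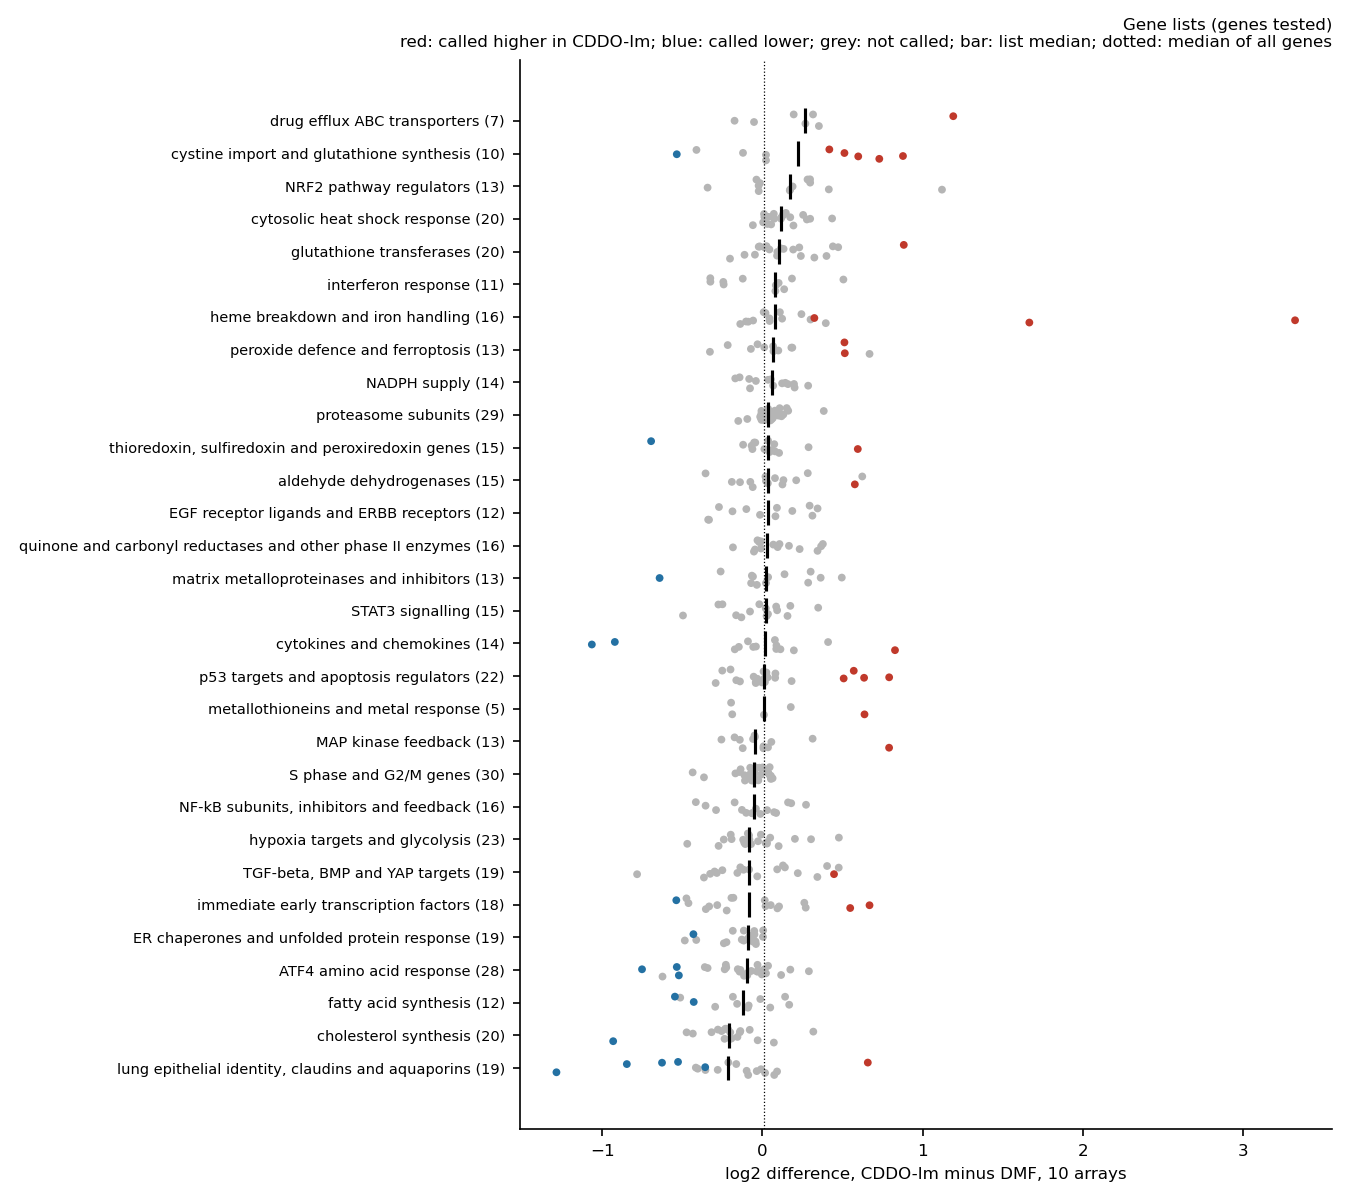
Each point is a gene of a list, placed by its log2 difference (CDDO-Im minus DMF) with 10 arrays, with the number tested in brackets, a bar at the list median and a dotted line at the median of all genes (0.01). Called genes are red (higher) or blue (lower); Hmox1 (3.32) and Slc40a1 (1.67) lie far from their list, and the lung epithelial and cholesterol synthesis lists have the lowest medians drawn (-0.21 each).

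The largest differences outside the lists included genes with no single theme. Glyat, a glycine conjugating enzyme, was higher by 1.33 ± 0.11 and Rnf183, a ubiquitin ligase, by 1.28 ± 0.10. Rnf183 was called with all 6 arrays, as were Calr3, a calreticulin relative (1.05 ± 0.14), Mest, an imprinted gene (1.03 ± 0.10), Dppa5a, a marker of pluripotent cells (0.99 ± 0.07), and the kinesin gene Kif3c (0.76 ± 0.07). Ypel5 was higher by 1.19 ± 0.07 without CDDO-Im replicate 2, which read 10.43, within the DMF range of 10.40 to 10.47. Dppa5a had signals of 9.92, 10.22 and 9.68 with CDDO-Im, against 8.87, 8.69 and 8.79 with DMF, and was called without CDDO-Im replicate 2 whether or not DMSO replicate 1 was kept. Of the 240 called genes, 85 had several kept probes, and for 81 of these all probes had the same sign, as they did for all 14 such genes among the 36.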

How the data were processed

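Intensity values, the mean bead signals of 45281 probes, were deposited without normalization or background subtraction, exported by the GenomeStudio Gene Expression module 1.9.0 per the file headers. Detection p-values were deposited per probe and array, per the file headers. Bead counts were also deposited by the authors, with a median of 35 to 41 per probe and array. A second deposited intensity matrix, whose normalization is not given in the sources used here, served as an alternative.

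Signals were corrected with limma's neqc (normexp from detection p-values, offset 16, quantile normalization, log2). Probes with detection p under 0.05 on 3 or more arrays were kept (19211), and the brightest per gene was used (13280 genes). Current symbols came through Entrez numbers (29586 probes) or accessions (2759), and 12936 probes kept the array's name. Close paralogs may share probes. limma 3.58.1 in R 4.3.3 fitted group and chip, two-sided. The design text of the series gives 0.1 µM for CDDO-Im, whereas the titles attach that dose to CDDO-Me, as does the treatment protocol. The titles were used.

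Members, lists and tests were chosen with earlier results of these data known, as was the choice to leave out DMSO replicate 1. The rule for named genes took those called with 12 arrays or without CDDO-Im replicate 2 (same sign within each chip, no clone names, at most 12 each way and 4 a list), the smallest p of a list with none called, and Hmox1, Slc7a11, Nqo1, Gclc, Gclm, Txnrd1, Srxn1, G6pdx, Egr1 and Mmp10. All other genes, including those named for calls with 10 arrays, were chosen after their values were seen. Same-numbered CDDO-Im and DMF arrays had deviations that correlated at 0.02, 0.03 and 0.17, so the numbers were not taken to pair the samples. Calls were checked on simulated data. Some genes are not reported here. 3 arrays a group limit the precision.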

Additional observations from a re-analysis of the deposited data

How the results depend on the processing

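Of the 240 genes, 1 turned sign under an alternative, Tcp11l1, with -0.02 when both arrays were put back, against 0.45 with 10 arrays. With 12 arrays, limma's count of 0 became 4 without background correction, 3 with an offset of 50, 12 with the deposited normalized matrix, 7 without the detection filter, 5 without the chip term, 2 when CDDO-Im replicate 2 was left out and 240 when DMSO replicate 1 was left out too. Weighting arrays by their fit called 806 genes, among them all 240 (limma's gene-by-gene method, as the default one could not be fitted). The weights were 0.03 for DMSO replicate 1 and 0.04 for CDDO-Im replicate 2, against 0.55 to 4.20 for the others. The weighted fit thus nearly left both arrays out, and its overlap with the 240 is not a separate check. Leaving out 1 array gave 0 to 36.

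Without CDDO-Im replicate 2, the count of 2 became 9 without background correction, 11 with an offset of 50, 6 with cyclic loess, 1 with median scaling, 25 with the deposited matrix, 11 without the filter, 4 for genes detected on all arrays, 14 without the chip term, 429 with array weights, 1 with the CDDO-Im and DMF arrays alone, 240 without DMSO replicate 1 and 0 with an intensity trend, on either chip alone, with the replicate block in place of the chip or beside it, and with CDDO-Im replicate 2 put back. Leaving out 1 array gave 0 to 240.

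With 10 arrays, whose own alternatives were added after seeing the data, the count of 240 became 444 with the deposited matrix, 154 without the filter, 140 with the replicate block, 139 with block and chip, 443 with an intensity trend, 361 with array weights, 1 with the 5 CDDO-Im and DMF arrays alone, 0 on chip 2 alone and 0 with both arrays put back. Leaving out 1 array gave 11 (without CDDO-Im replicate 3) to 240; it was 34 without CDDO-Im replicate 1, 102 without DMF replicate 1, 134 without DMF replicate 3 and 150 without CDDO-Me replicate 2. Without CDDO-Im replicate 1 or 3 a single CDDO-Im array is assumed to vary like the other groups. Hmox1, Slc40a1, Sox9, Il1rn, Edn2, Dppa5a, Rnf183 and Ypel5 were called each time. Chip 1 alone left no residual degrees of freedom. Median scaling moved the median over all genes with 12 arrays to -0.11, against 0.05, and to 0.02 with 10, against 0.01.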
